A study of Rattus norvegicus with 6 samples.

Results

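Nos3, Edn1, Ptgs2, Cav1, Kdr and Vegfa, 6 genes of vascular tone or vascular endothelial growth factor (VEGF) signalling, were followed. The cells are labelled as primary endothelial cells of the rat abdominal aorta. The genes were chosen by identifier, and all 6 are among the 32879 rows of the deposited gene table. Only 2 of them, Ptgs2 and Cav1, held enough counts for the test across all rows. The other 4 lay below the count filter, and 1 of these, Kdr, was listed at 0 in every library.

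The study compared 3 libraries titled WT with 3 titled KO to map how gene expression differs where the microRNA miR-337-3p is lost. The labels do not describe the perturbation uniformly. KO libraries carry a genotype field that names a miR-337-3p knockdown, and 1 treatment text, shared by WT and KO libraries alike, gives transfection with 100 nM of an inhibitor named for the human microRNA, hsa-miR-337-3p. The groups are therefore used as titled, and what the WT cells received is not settled by the labels. All cells were grown on fibronectin in endothelial cell medium, and the labels name neither the animals nor separate cultures, so p-values measure only the spread between these libraries, which may be technical. Library totals lay between 5037127 and 5385434 estimated counts.

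The microRNA at issue pairs with messenger RNAs mainly through its seed. The rat sequence in RefSeq (build GRCr8, chr6:134321201-134321223, plus strand) is shown because the labels name this microRNA as the one perturbed, with the seed, bases 2 to 8, in capitals.
rno-miR-337-3p: uUCAGCUCcuauaugaugccuuu
The sequence of the human inhibitor was not used here, and sites for the seed in the 6 transcripts were not analysed here.

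As background, endothelial cells adjust the calibre of a vessel by releasing mediators that act on the smooth muscle beneath them. Nitric oxide, made by the enzyme that Nos3 encodes, relaxes the muscle, and endothelin-1, the peptide cut from the Edn1 product, contracts it. Caveolin-1, the Cav1 product, builds the membrane pits called caveolae and binds and restrains the nitric oxide synthase there. Cyclooxygenase-2, the Ptgs2 product, is the inducible enzyme at the head of prostaglandin and prostacyclin synthesis. VEGF-A, encoded by Vegfa, acts on endothelial cells chiefly through the receptor tyrosine kinase VEGFR2, encoded by Kdr.

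Among the vasoactive genes, Ptgs2 was lower in KO than in WT libraries, and Edn1 was lower too, at a level under the filter of the main test. Cav1 was abundant and differed little. Nos3 and Vegfa gave few counts, with no difference resolved, and Kdr gave no counts. Levels are in CPM (counts per 1000000 counts of the library). They are not scaled by transcript length, so the levels of different genes are not ranked against each other.

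**Figure D1:**
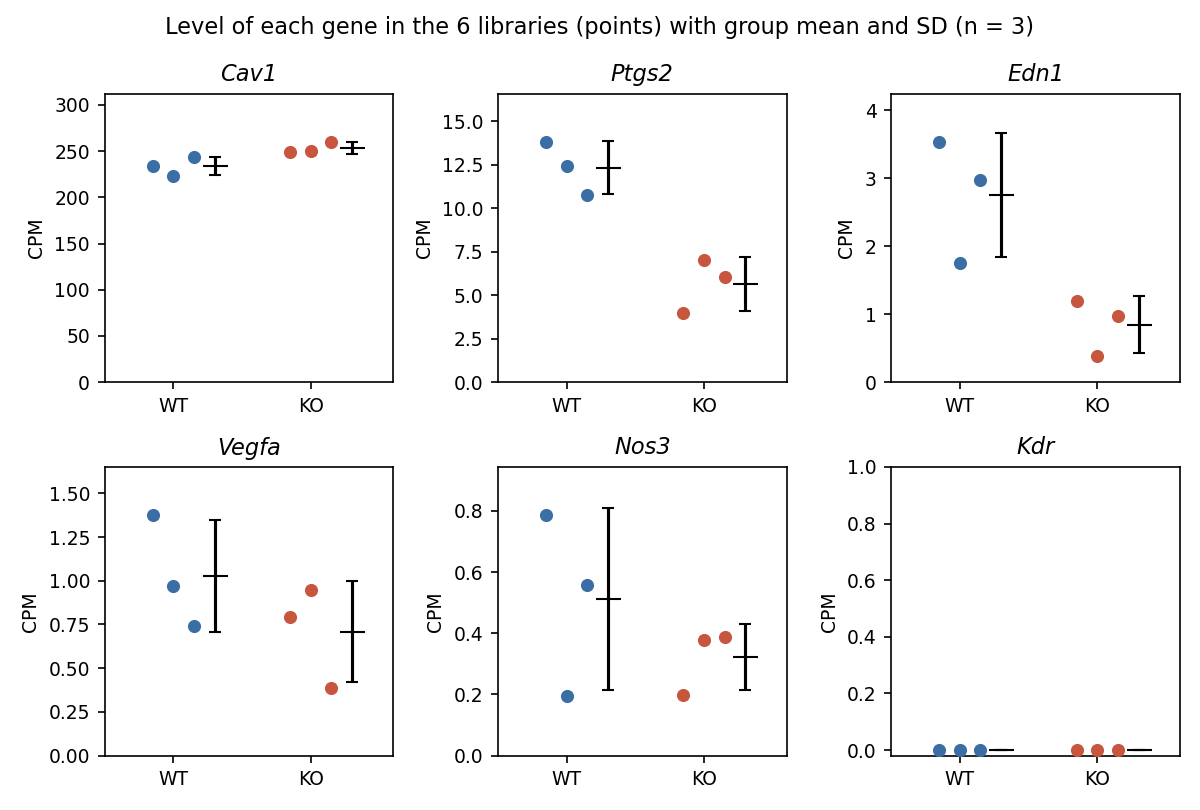
Level of each gene in CPM (vertical axis, from 0, a separate scale for each gene) in the WT and KO libraries. Points are single libraries and the bars beside them the mean and SD (n = 3); KO points lie below all WT points for Ptgs2 and Edn1 and above them for Cav1, the groups overlap for Vegfa and Nos3, and Kdr is at 0 throughout.

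Ptgs2 (ENSRNOG00000002525) measured 13.8, 12.4 and 10.8 CPM in WT replicates 1 to 3, and 3.97, 7.0 and 6.03 CPM in KO replicates 1 to 3. Every KO library lay below every WT library, and KO replicate 1 was the lowest of all. The means were 12.3 ± 1.54 CPM in WT and 5.67 ± 1.55 CPM in KO (SD, n = 3 each). The fitted level of Ptgs2 fell by 1.06 ± 0.21 (SE) on the log2 scale in KO (quasi-likelihood F test of edgeR, adjusted p = 0.00057 after Benjamini-Hochberg). As a fold, WT was 2.09 times KO, with a 95% interval of 1.55 to 2.82. The result rests on 192 rounded counts in the WT and 88 in the KO libraries.

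Of the 2 tested genes, Ptgs2 passed the threshold of 0.05 and Cav1 did not. Over all 12852 rows tested, 21.2% passed it in either direction and 10.3% passed with KO lower, and 1 call among 2 genes does not set these genes apart from that background. In size the Ptgs2 change lay toward the edge of the distribution: 340 rows, or 2.65%, had a lower log2 fold change, against a median of -0.0033 over all tested rows. By adjusted p it stood further in, since 1018 rows had a smaller value. Of the tested rows, 65.0% had a higher average log2 CPM than Ptgs2, and its change was not ranked among rows of like counts.

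The spread of Ptgs2 between libraries was near the size that counting alone gives in WT and larger in KO. The coefficient of variation was 12.4% in WT, where counting error at the mean count corresponds to 12.5%. It was 27.3% in KO, against 18.5% from counting. Each coefficient rests on 3 libraries, and its difference from counting error was not tested. Without KO replicate 1 the log2 fold change of Ptgs2 was -0.86 (edgeR adjusted p = 0.0055), the smallest change with any library left out.

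The tested Ensembl row whose pattern over the 6 libraries was most like that of Ptgs2 was ENSRNOG00000011009, with a Pearson r of 0.99 on log2(CPM + 0.5). It measured 26.1, 23.1 and 23.2 CPM in the WT libraries and 11.9, 17.0 and 16.0 CPM in the KO libraries. Since the row was picked for its likeness to Ptgs2 in these same libraries, its order of libraries and its separation by group follow largely from that choice, and no test is given for it. With 6 libraries in 2 separated groups such likeness was common: 267 tested rows reached an r above 0.95.

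**Figure D2:**
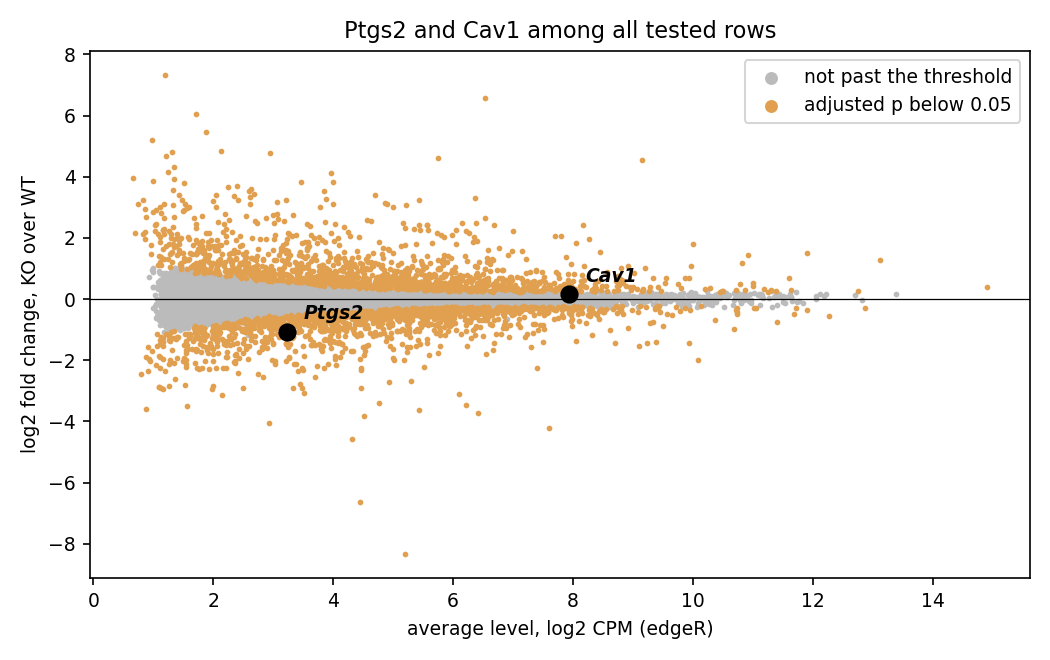
Log2 fold change of KO over WT (vertical axis) against average log2 CPM (horizontal axis) for the 12852 tested rows, from the edgeR fit; orange points passed an adjusted p of 0.05 and black points are the 2 tested genes. Ptgs2 lies at -1.06 among the rows past the threshold, and Cav1 at 0.16 among those that did not pass.

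Edn1 (ENSRNOG00000014361), which encodes the vasoconstrictor precursor, was scarce. WT replicates 1 to 3 held 18, 9 and 16 counts, and KO replicates 1 to 3 held 6, 2 and 5. In CPM these were 3.54, 1.75 and 2.97 in WT and 1.19, 0.379 and 0.972 in KO. The groups did not overlap, but WT replicate 2 and KO replicate 1 lay near each other. The means were 2.75 ± 0.914 CPM in WT and 0.847 ± 0.420 CPM in KO (SD, n = 3 each).

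Edn1 did not enter the main test, because only 2 libraries reached the level that the filter asks of 3. Summed over libraries, 43 WT counts stood against 13 KO counts. The WT to KO ratio per library total was 3.27, with a 95% exact (Clopper-Pearson) interval of 1.73 to 6.64. That interval covers counting error only. When the minimum count of the filter was set to 5 instead of 10, a choice made after seeing the data, the log2 fold change of Edn1 was -1.64 ± 0.45 (SE; edgeR adjusted p = 0.010). In that fit 20% of all rows passed, and 9.56% passed with KO lower. All WT libraries reached the level of the lower filter, whereas KO replicate 2, at 2 counts, fell short. The KO libraries alone would not have admitted Edn1, so this p-value is no separate support for a lower level. With no filter the log2 fold change of Edn1 was also -1.64 (edgeR adjusted p = 0.0056, where 13.9% of 21024 rows passed).

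The Edn1 call was not stable when single libraries were left out. Those fits used the usual filter, so the fit at the lower filter was not repeated in them. With a library left out, the usual filter asks for 2 libraries in place of 3, and the row was tested in 4 of these 6 fits. It entered those 4 fits only through WT replicates 1 and 3, in the group where it was higher. Their p-values are therefore no separate support for a lower level. Leaving out KO replicate 2, which held 2 counts, gave a log2 fold change of -1.28 that did not pass (edgeR adjusted p = 0.068). Leaving out WT replicate 2, KO replicate 1 or KO replicate 3 gave adjusted p values of 0.0069, 0.016 and 0.029 by the same edgeR test. Without WT replicate 1 or WT replicate 3 the row was again under the filter, and the log2 ratios of mean CPM were -1.48 and -1.64. Whether the difference in Edn1 was larger than that in Ptgs2 was not tested. The 95% intervals of their log2 fold changes, -2.57 to -0.70 for Edn1 at the lower filter and -1.50 to -0.63 for Ptgs2, overlapped widely.

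Because Ptgs2 and Edn1 were both lower in KO libraries, their promoter windows are shown, from RefSeq on build GRCr8, each running from 250 bases before the annotated start to 50 after it. The Edn1 window is chr17:22666638-22666937 on the minus strand and the Ptgs2 window chr13:64713813-64714112 on the plus strand. Both read 5′ to 3′ along the gene. All 6 genes were matched by symbol, with 8 windows in all. Capitals mark matches, on either strand, to motifs known for AP-1, the cAMP response half-site, the E-box, GATA factors, the TATA box and C/EBP.
Edn1: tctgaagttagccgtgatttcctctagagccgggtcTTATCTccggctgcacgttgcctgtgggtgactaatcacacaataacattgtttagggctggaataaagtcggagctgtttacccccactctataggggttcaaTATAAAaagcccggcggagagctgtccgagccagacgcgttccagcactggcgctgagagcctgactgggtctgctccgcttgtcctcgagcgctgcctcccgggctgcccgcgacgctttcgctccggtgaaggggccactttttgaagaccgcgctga
Ptgs2: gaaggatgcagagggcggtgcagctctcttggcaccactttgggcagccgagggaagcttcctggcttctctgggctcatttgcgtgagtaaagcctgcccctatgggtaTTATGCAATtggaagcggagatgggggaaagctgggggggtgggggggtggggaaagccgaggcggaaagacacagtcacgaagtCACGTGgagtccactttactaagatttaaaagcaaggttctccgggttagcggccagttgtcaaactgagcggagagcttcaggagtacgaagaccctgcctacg
No motif among these 6 was matched in both windows. Both strands were searched for the exact letters alone, and variant spellings of a motif were not looked for. The Edn1 window held the GATA letters, AGATAA, on the opposite strand at positions -214 to -209, counted from the annotated start. They occur in 11.6% of all 33469 windows of that length. The same window held the TATA letters, TATAAA, at -110 to -105, which occur in 14.2% of windows. The Ptgs2 window held the C/EBP letters, TTNNGCAAT, at -140 to -132, found in 2.33% of windows. It held the palindromic E-box, CACGTG, at -55 to -50, found in 6.42%. The AP-1 letters, TGANTCA, were in neither window and in 7.33% of all. The cAMP response half-site, TGACG, was likewise in neither window and in 21.2% of all. The short core of hypoxia response elements, ACGTG, was present in both and in 19.3% of all, and in Ptgs2 it lies within the E-box. It was also in a window of Cav1, which was not lower in KO, so it is not particular to the lower genes. A Cav1 window also held the TATA letters and a Vegfa window the GATA letters, and the windows of Nos3 and Kdr held none of the 7 motifs. These matches describe letters in a window and carry no measurement of binding.

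Nos3 (ENSRNOG00000009348), the source of endothelial nitric oxide, was barely detected. WT replicates 1 to 3 held 4, 1 and 3 counts and KO replicates 1 to 3 held 1, 2 and 2. The means were 0.512 ± 0.298 CPM in WT and 0.322 ± 0.107 CPM in KO (SD, n = 3 each), and the groups overlapped. The KO to WT ratio of the 5 and 8 summed counts was 0.631, with a 95% exact interval of 0.163 to 2.19. That interval spans 1, so no difference in either direction was resolved at this depth. In the fit with no filter its log2 fold change was -0.58 ± 0.90 (SE; edgeR adjusted p = 0.74). The log2 ratio of mean CPM was -0.67, and it was -0.22 without WT replicate 1 and -1.06 without WT replicate 2.

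Cav1 (ENSRNOG00000056836), the structural protein of caveolae and an inhibitor of the nitric oxide synthase, was by contrast well measured. It had 234, 223 and 244 CPM in WT replicates 1 to 3 and 249, 250.3 and 260.2 CPM in KO replicates 1 to 3. All KO libraries lay above all WT libraries, and the nearest were WT replicate 3 and KO replicate 1. The means were 234 ± 10.1 CPM in WT and 253 ± 6.03 CPM in KO (SD, n = 3 each).

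The log2 fold change of Cav1 was 0.16 ± 0.08 (SE), which did not pass (edgeR adjusted p = 0.17, unadjusted p = 0.057). As a fold, KO was 1.12 times WT, with a 95% interval of 0.996 to 1.26. The interval reaches just below 1. The size of the estimate moved with the scaling, from 0.12 with library size alone to 0.17 with upper quartile factors. Of the tested rows 29.0% had a higher log2 fold change. The coefficient of variation of Cav1 was 4.31% in WT, above the 2.87% from counting, and 2.38% in KO, where counting gives 2.77%. These differences, from 3 libraries per group, were not tested either.

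**Figure D3:**
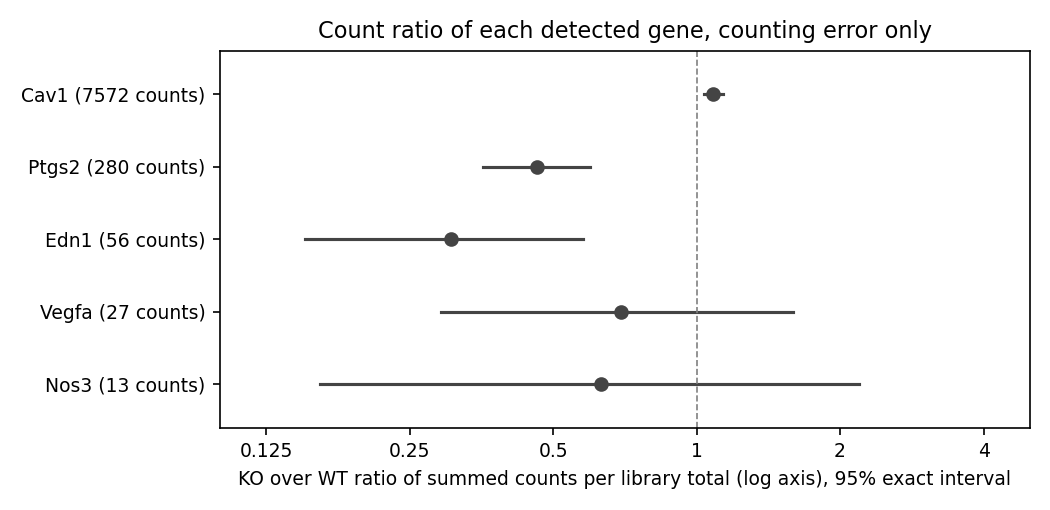
KO over WT ratio of summed counts per library total (horizontal log axis) with its 95% exact interval, for the 5 detected genes in order of their total counts; the dashed line marks a ratio of 1. The intervals of Ptgs2 and Edn1 lie below 1, those of Vegfa (0.291 to 1.59) and Nos3 (0.163 to 2.19) span it, and that of Cav1 (1.04 to 1.13) lies just above it; all cover counting error only and not the spread between libraries.

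In the VEGF pair, the ligand was scarce and the receptor was not detected. Vegfa (ENSRNOG00000019598) had 7, 5 and 4 counts in WT replicates 1 to 3 and 4, 5 and 2 counts in KO replicates 1 to 3. The means were 1.03 ± 0.320 CPM in WT and 0.710 ± 0.288 CPM in KO (SD, n = 3 each). The groups overlapped, with KO replicates 1 and 2 above WT replicate 3 and KO replicate 2 close to WT replicate 2. The KO to WT ratio of the 11 and 16 summed counts was 0.695, with a 95% exact interval of 0.291 to 1.59. In the fit with no filter the log2 fold change was -0.47 ± 0.61 (SE; edgeR adjusted p = 0.68).

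Kdr (ENSRNOG00000046829), the main signalling receptor for VEGF-A, was listed at 0 in all 6 libraries. A count of 0 allows up to 3 counts, which is 0.557 to 0.596 CPM in a single library and 0.0965 CPM over all 6 together. No fold or test can be given. A row at 0 says that no read was assigned to this identifier, and 11855 rows of the table, or 36.1%, were likewise at 0 in every library. The table itself pairs no identifier with a symbol, so the match of this identifier to Kdr rests on the list that chose the genes.

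The cell type named in the labels was checked against the genes at hand. Kdr and Nos3 are defining genes of vascular endothelium, and the first was at 0 and the second at 1 to 4 counts per library in both groups. Cav1, which was abundant, is shared by endothelial cells with smooth muscle cells, fibroblasts and adipocytes, so it does not separate these types. Other endothelial, smooth muscle, fibroblast, pericyte and leukocyte markers were not analysed here, because the table carries no gene symbols and the reference list used here pairs none of its identifiers. The cells are therefore called by their label, and these 2 markers, as counted on their Ensembl rows, go against it. The table also holds 2319 rows of gene models outside Ensembl. Whether any of those rows took reads of Kdr or Nos3 was not examined. In libraries from whole cultures, fewer cells of a type and less RNA per cell cannot be told apart, and the part of either in the lower Ptgs2 and Edn1 was not tested.

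Across the 5 detected genes, 3 had no overlap between the groups, Ptgs2 and Edn1 with KO below WT and Cav1 with KO above. Over all rows with a count in any library 25.7% were separated in this way, 14.4% with KO below and 11.3% with KO above. Of those 21024 rows only 12852 held enough counts for the main test. The share among rows of like counts was not computed. The 2 genes with KO lower held 280 and 56 rounded counts in all, the 2 with overlapping groups held 27 and 13, and Cav1 held 7572. The estimates for Nos3, Edn1 and Vegfa were whole numbers as deposited in all 6 libraries, exactly as printed. Cav1 had fractional estimates in 4 libraries and Ptgs2 in 1, and reads that these rows share with others cannot be traced in the table.

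**Figure D4:**
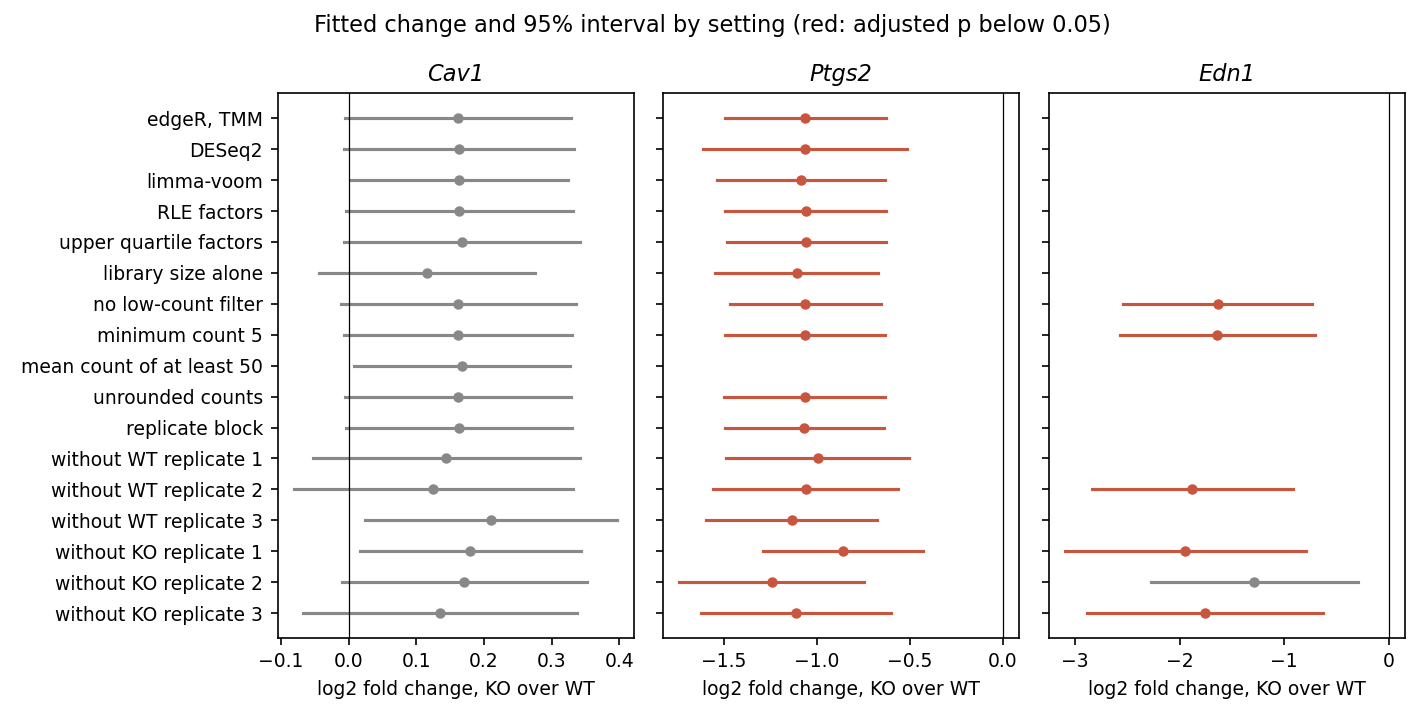
Log2 fold change of KO over WT with its 95% interval (horizontal axis, a separate scale for each gene) under each setting (rows) for Cav1, Ptgs2 and Edn1, with red where the adjusted p was below 0.05 and no mark where the gene was not tested. Ptgs2 stayed between -1.24 and -0.86 and red wherever tested, Cav1 stayed grey between 0.12 and 0.21, and Edn1 turned grey without KO replicate 2.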

How the data were processed

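Per the labels' protocols, RNA was purified on columns, and the cDNA, made at full length, was amplified over few cycles. The authors deposited 1 table of estimated counts per gene, not normalized, for 6 libraries, and 21.6% of its values are not whole. Per the submitters' processing notes the build was mRatBN7.2. Which aligner, counter or strand setting was used is not given in the sources used here.

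The 6 genes were taken by Ensembl identifier from a list that pairs them with symbols. The genes, lists and tests were chosen with earlier results of these data known. The rule for named genes took the 6 members and, as no table pairs identifiers with symbols, the nearest row to the most abundant risen and fallen member. No member rose past the threshold. The planned pathway and marker lists could not be run for the same reason.

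Counts were rounded and fitted over all rows with edgeR 4.0.16 in R 4.3.3 (filterByExpr with a minimum count of 10, TMM, quasi-likelihood F test, group alone, Benjamini-Hochberg over 12852 rows, threshold 0.05). Standard errors are the log2 fold change over the square root of F. The alternatives tried were limma-voom (limma 3.58.1), DESeq2 1.42.0, other scalings and filters, unrounded counts, the replicate number as a block, and each library left out in turn. The procedure was tested on simulated data. No molecular identifiers are described, so exact intervals and limits from 0 counts cover counting error only.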

Additional observations from a re-analysis of the deposited data

How the results depend on the processing

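The lower Ptgs2 level kept its direction and passed in all 9 other settings that tested it, with log2 fold changes of -1.11 to -1.06, and with each library left out in turn (-1.24 to -0.86, edgeR adjusted p of 0.00019 to 0.0055). The filter on a mean count of 50 removed it. Cav1 did not pass in any of 10 other settings (adjusted p of 0.12 to 0.32) or with a library left out (0.13 to 0.21 on the log2 scale, edgeR adjusted p of 0.10 to 0.48). For the genes below the filter, the log2 ratio of mean CPM with single libraries left out ranged from -2.03 to -1.35 for Edn1, from -0.80 to -0.24 for Vegfa and from -1.06 to -0.22 for Nos3. On TMM-scaled CPM these ratios were -1.65, -0.49 and -0.62. The fits of Edn1, Vegfa and Nos3 below the filter rest on 56, 27 and 13 counts. The count of 2730 rows past the threshold over the whole table was 1968 with DESeq2 and 1988 to 2759 with a library left out. Scaled by library size without TMM factors, 1234 rows were higher and 1633 lower in KO, against 1409 and 1321, and the median change over tested rows, in log2, moved to -0.05. With the replicate number as a block 2960 rows passed, 2718 of them among the 2730, and the log2 fold changes were -1.07 for Ptgs2 (adjusted p = 5.7e-05) and 0.16 for Cav1 (adjusted p = 0.16). Libraries with the same number did not deviate together (r of -0.017, 0.005 and 0.036), so no pairing by number showed in these values. Whether libraries of the same number were prepared together is not settled by them. The pathway lists and marker lists were not run.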
